A study of Homo sapiens with 8 samples.

Results

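NRF2, its partner KEAP1 and a set of antioxidant target genes were examined in RNA-seq data of shALDH1A1 and CTRL cells labelled as HT29. The 10 genes were taken by symbol from a list of the pathway, namely NFE2L2 (the gene of NRF2), KEAP1, GCLC, GCLM, TXN, TXNRD1, NQO1, HMOX1, AKR1C2 and AKR1B10, out of 18664 genes in the table. The table lists 84798 transcripts, and the counts and TPM (transcript share of a library, a level adjusted for transcript length) of all transcripts of a gene were added. HT29 is a human colon cancer cell line. The shALDH1A1 cells (4 libraries) carry a knockdown of ALDH1A1, which encodes a cytosolic aldehyde dehydrogenase, made with a lentiviral hairpin vector as a stable line, and the CTRL cells (4 libraries) are called shControl, WT and parental in different labels. All 8 libraries were from cells given 10% FBS. The sources do not say which of the hairpins was sequenced or whether the 4 libraries of a group came from separate cultures, so the p-values measure the spread between these libraries, which may be technical.

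NRF2 is a transcription factor that pairs with small MAF proteins and binds antioxidant response elements in the promoters and enhancers of cytoprotective genes. In resting cells KEAP1 holds NRF2 in the cytoplasm and presents it to a CUL3 ubiquitin ligase for degradation, and oxidants or electrophiles that modify cysteines of KEAP1 release it. Its targets make glutathione, reduce thioredoxin and detoxify quinones, heme and aldehydes, and colon cancer cells use the same genes against oxidative stress. NRF2 activity is mainly set at the protein level, which RNA-seq does not measure.

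The libraries differed in depth and in composition. The shALDH1A1 libraries held 536575 to 1908803 counts and the CTRL libraries 291260 to 4137111, with the lowest in CTRL replicate 2. ALDH1A1, the targeted gene, had 5 counts in all in shALDH1A1 cells and 4811 in CTRL cells. A list of 30 genes that every cell uses (actins, tubulins, ribosomal proteins, GAPDH and the like) took 0.0316 to 0.173% of all shALDH1A1 counts by library and 1.17 to 4.95% in CTRL libraries. Markers of stomach epithelium took 0.00194 to 0.0387% in shALDH1A1 libraries, with ATP4A and ATP4B at 0, and 3.28 to 38.7% in CTRL libraries, where all 14 were counted. Of 13 colon epithelium markers, 12 were counted in each group, at 0.00293 to 0.0173% in shALDH1A1 libraries, against 0.0164 to 0.133% in CTRL libraries, with CDX1 at 0 in shALDH1A1 and CDX2 at 0 in CTRL libraries. Any count in a group made a marker counted, and some were near 0. By replicate, CDX2 had 0, 0, 0 and 3 counts in shALDH1A1 libraries. CDH17 had 3, 1, 2 and 1 there, against 0, 2, 3 and 1 in CTRL libraries. EPCAM had 0, 9, 2 and 0, against 48, 1, 190 and 25. The 10 genes of the MTRNR2L family in the table took 0.0036 to 0.183% in shALDH1A1 libraries, against 0.233 to 50.4% in CTRL libraries. Of 8 leukocyte markers, 6 were counted in shALDH1A1 libraries (0.0834 to 0.116%, with CD3D and MS4A1 at 0) and 8 in CTRL libraries (0.0148 to 0.0555%). The 10 stroma and vessel markers took 0.000907 to 0.0292% in shALDH1A1 libraries, with VWF at 0, and 0.0618 to 2.22% in CTRL libraries, where all 10 were counted. The 3 red blood cell markers reached at most 0.0522% of the counts of any shALDH1A1 library. For CTRL the highest share was 0.0988%, and each group had a library at 0. The hemoglobin gene HBB had 0, 0, 147 and 113 counts by replicate in shALDH1A1 cells, against 628, 0, 319 and 26 in CTRL cells. The part of these differences in the results below was not tested. The labels name a colon line, and whether the libraries held only HT29 cells was not tested. Values below are those of libraries so labelled.

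A fold change therefore depends on the scale of the libraries. The main scale was TMM, edgeR's scaling to the bulk of genes, and the summed counts of the 30 genes that every cell uses gave a second scale. The median log2 fold change of the 7971 genes with enough counts to be tested was -1.45 on the TMM scale and 1.77 on the scale of genes that every cell uses, a shift of 3.22. Changes are given on the TMM scale. The other scale stands beside them for the 10 genes. For the genes of the lists, those that kept a call of lower on it are named, with some of those higher. Library values are listed in the order of replicates 1 to 4. A gene was called at an adjusted p under 0.05 (edgeR's quasi-likelihood test, Benjamini-Hochberg over all tested genes).

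In shALDH1A1 cells the 10 genes together took 0.00771 ± 0.00284% of the counts (SD, n = 4, range 0.00518 to 0.0118%), against 0.101 ± 0.048% in CTRL cells (SD, n = 4, range 0.034 to 0.141%). Every shALDH1A1 library lay below every CTRL library (p = 0.0286, exact permutation test, two-sided, the smallest value that 4 libraries against 4 allow). Per count of the 30 genes that every cell uses, the groups overlapped and the mean was higher in shALDH1A1 cells. The 10 genes had 0.221, 0.0299, 0.0689 and 0.0624 counts in shALDH1A1 cells, against 0.0201, 0.0292, 0.0757 and 0.0538 in CTRL cells (p = 0.286, exact permutation test, two-sided). Of the 10 genes, 8 were tested, 5 fell (NFE2L2, KEAP1, TXNRD1, TXN and AKR1C2) and 0 rose (0 at an unadjusted p under 0.05), while NQO1, GCLM and AKR1B10 did not pass. NFE2L2, KEAP1, TXNRD1 and AKR1C2 passed the filter on low counts only through the CTRL libraries, so the filter itself favoured a lower value for them. TXN, NQO1 and AKR1B10 also needed CTRL libraries to pass, so the filter favoured a lower value for them as well. The same holds for any gene of the lists below with as few counts in shALDH1A1 libraries. Over all tested genes 33.0% were called lower and 2.6% higher. DESeq2 called 7 of the 8 lower and 1 higher, beside 56.0% and 16.7% of all genes. With no filter on low counts 8 of the 10 were lower and 0 higher, beside 39.6% and 7.01%, and without CTRL replicate 2 the calls were 8 lower and 1 higher of 9, beside 60.4% and 17.3%. The TPM of the groups did not overlap for 7 genes, all lower in shALDH1A1, as for 21.7% of all genes with a count and 34.9% of all tested genes. On the scale of genes that every cell uses, 5.52% of all tested genes were called lower and 40.5% higher, and of the 8 genes AKR1C2 was lower and GCLM higher. GCLC and HMOX1 had too few counts to be tested. In bulk RNA, fewer cells that express a gene and less of its RNA per cell cannot be told apart.

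**Figure D1:**
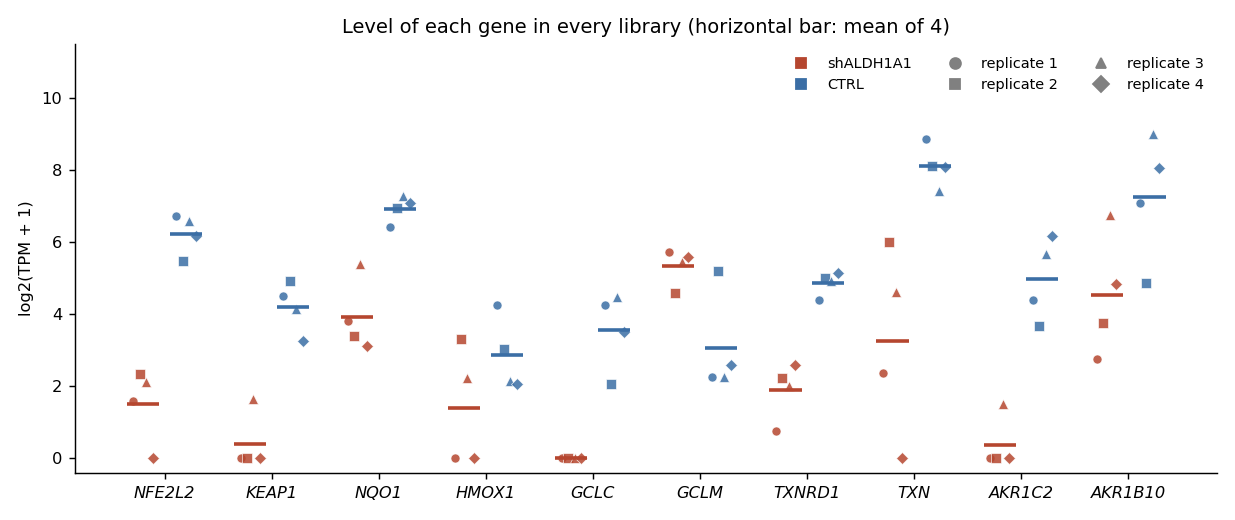
Level of each gene in every library, as log2(TPM + 1), with shALDH1A1 libraries (red) left of CTRL libraries (blue), a marker shape for each replicate number and a bar at the mean of 4 libraries. The groups did not overlap for 7 of the 10 genes, all lower in shALDH1A1, as for 34.9% of all tested genes. GCLM was the gene with a higher mean in shALDH1A1.

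The motif that NRF2 binds has the core TGACNNNGC, and the looser TGANNNNGC holds every TGACNNNGC match within it. Promoter windows of RefSeq (GRCh38.p14, 250 bases before to 50 after a start site) were at hand for 8 of the 10 genes, in 11 windows. Of these, 7 held TGANNNNGC on either strand and 4 held TGACNNNGC, where 41.8% and 13.3% of 35116 windows of all genes did. A match is a description of letters and not a measured site. The windows of GCLM and GCLC are shown because they are the subunits of one enzyme and had opposite values in these cells, and those of KEAP1 and TXNRD1 because both genes fell on the TMM scale and hold the TGACNNNGC core. Capitals mark TGANNNNGC, on either strand. All 4 windows run 5′ to 3′ along the strand of their gene.
GCLM, chr1:93909381-93909680, minus strand: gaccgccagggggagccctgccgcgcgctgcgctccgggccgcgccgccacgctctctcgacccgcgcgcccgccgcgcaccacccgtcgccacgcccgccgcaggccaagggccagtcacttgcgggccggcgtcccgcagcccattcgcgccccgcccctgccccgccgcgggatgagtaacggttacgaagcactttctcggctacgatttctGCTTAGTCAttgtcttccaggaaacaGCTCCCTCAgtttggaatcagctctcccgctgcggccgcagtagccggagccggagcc
GCLC, chr6:53545052-53545351, minus strand: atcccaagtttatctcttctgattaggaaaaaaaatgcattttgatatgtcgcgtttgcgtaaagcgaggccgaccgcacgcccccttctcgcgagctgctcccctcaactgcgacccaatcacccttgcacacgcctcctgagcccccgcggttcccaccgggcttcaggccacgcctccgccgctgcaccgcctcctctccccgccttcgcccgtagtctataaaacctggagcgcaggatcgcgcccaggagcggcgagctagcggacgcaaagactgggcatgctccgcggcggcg
KEAP1, chr19:10502722-10503021, minus strand: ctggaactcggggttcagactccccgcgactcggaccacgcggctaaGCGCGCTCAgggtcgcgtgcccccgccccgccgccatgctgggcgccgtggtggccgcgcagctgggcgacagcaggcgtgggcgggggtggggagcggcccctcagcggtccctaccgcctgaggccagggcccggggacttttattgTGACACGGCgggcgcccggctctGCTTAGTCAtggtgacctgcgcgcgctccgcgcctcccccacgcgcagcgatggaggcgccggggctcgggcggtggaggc
TXNRD1, chr12:104215529-104215828, plus strand: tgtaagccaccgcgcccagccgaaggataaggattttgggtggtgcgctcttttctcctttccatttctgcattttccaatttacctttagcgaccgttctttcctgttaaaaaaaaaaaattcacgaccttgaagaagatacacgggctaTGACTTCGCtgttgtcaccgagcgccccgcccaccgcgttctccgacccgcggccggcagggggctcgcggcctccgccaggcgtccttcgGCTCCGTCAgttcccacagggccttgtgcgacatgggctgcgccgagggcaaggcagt
In the GCLM window the match TGACTAAGC starts 34 bases before the start site on the opposite strand, and KEAP1 holds the same 9 letters, 31 bases before its own start site and also on the opposite strand. The TXNRD1 window shown holds TGACTTCGC at -99 and TGACGGAGC at -8, and the GCLC window holds no match. A second window of KEAP1, not shown, held no match, and a second window of TXNRD1 held TGAGCAGGC at -198 and TGACAAAGC at -102. Bases outside the windows were not searched, so the lack of a match does not speak to sites further from a start site. The 2 genes with the same 9 letters had fold changes of opposite sign, as the next paragraphs give. On neither scale were both called, and whether the match bears on their levels was not tested.

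NFE2L2 and KEAP1, the factor and the adaptor that holds it back, were both near the limit of counting in shALDH1A1 cells. NFE2L2 (GRCh37 chr2:178083395-178257484, minus strand) had 2, 3, 3 and 0 counts in shALDH1A1 cells, against 476, 10, 649 and 264 in CTRL cells. In TPM these were 2.02, 4.08, 3.33 and 0 in shALDH1A1 and 105, 43.4, 94.9 and 70.6 in CTRL. All shALDH1A1 libraries were below all CTRL libraries, and shALDH1A1 replicate 4 held no count. The mean was 2.36 ± 1.79 TPM in shALDH1A1 cells and 78.6 ± 27.6 TPM in CTRL cells (SD, n = 4 each). NFE2L2 fell by 4.86 on the log2 scale (SE 1.23, adjusted p = 0.00376 by edgeR), and on the scale of genes that every cell uses the value was -2.08 (adjusted p = 0.128). Leaving out 1 library gave -5.91 (without CTRL replicate 2) to -4.12 (without shALDH1A1 replicate 4) on the TMM scale. NFE2L2 is among the transcription factors that the study tabulated from these libraries, so its direction is not independent evidence. All 8 counts of shALDH1A1 cells lay on the transcript row NM_006164.5, which held 93.7% of the counts in CTRL cells.

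KEAP1 (chr19:10596801-10614234, minus strand) had 2 counts in shALDH1A1 replicate 3 and none in the other 3 shALDH1A1 libraries, against 101, 7, 118 and 33 counts in CTRL cells. The TPM was 0, 0, 2.14 and 0 in shALDH1A1 and 21.6, 29.4, 16.6 and 8.57 in CTRL. KEAP1 was lowest in shALDH1A1 replicates 1, 2 and 4 and the groups did not overlap. It fell by 4.65 on the log2 scale (SE 1.15, adjusted p = 0.0032), with a value of -2.12 on the other scale (adjusted p = 0.122). Leaving out 1 library gave -8.53 to -3.89 on the TMM scale. The lowest was without shALDH1A1 replicate 3, which holds both counts, so that the other shALDH1A1 libraries are all at 0 and the fitted value depends on the prior count. The ratio of pooled counts, shALDH1A1 over CTRL, was 0.0338 with a 95% counting interval of 0.00407 to 0.123 on the TMM scale and 0.277 with an interval of 0.0334 to 1.01 on the scale of genes that every cell uses. PCR reads are not independent molecules, so such intervals cover counting error only. The ratio of NFE2L2 to KEAP1 could be formed in no shALDH1A1 library, since none had 3 counts of KEAP1, and was 0.56 to 3.04 on the log2 scale of TPM in CTRL libraries.

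Of 16 genes that act on NRF2 or dimerise with it, 13 were tested, 3 fell and 0 rose on the TMM scale (0 higher at an unadjusted p under 0.05), beside 33.0% of all tested genes called lower, with a median of -1.42 beside the -1.45 of all tested genes. DESeq2 called 9 of the 13 lower and 0 higher, beside 56.0% and 16.7% of all genes. NFE2L1, an NRF2 relative, fell by 4.70 (adjusted p = 0.00449), and NEDD8, the modifier that switches on CUL3 ligases, fell by 3.38 (adjusted p = 0.0173). RBX1, the RING subunit of that ligase, fell by 3.07 (adjusted p = 0.0367). SQSTM1, which draws KEAP1 into autophagy, was at -2.73 (adjusted p = 0.0694). On the scale of genes that every cell uses, 0 of the 13 were lower (0 at an unadjusted p under 0.05) and 4 were higher, among them CAND1 and SKP1. On that scale 5.52% of all tested genes were lower and 40.5% higher, and the median of the list turned to 0.96. Without CTRL replicate 2, 10 of 16 tested were lower, beside 60.4% of all genes.

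The subunits of glutamate-cysteine ligase, the first enzyme of glutathione synthesis, had opposite values. GCLC (chr6:53362139-53481768, minus strand), the catalytic subunit, had no count in any shALDH1A1 library (0, 0, 0 and 0), against 130, 1, 221 and 60 counts in CTRL cells, which is 18.1, 3.18, 21.3 and 10.3 TPM. CTRL replicate 2, the shallowest library, held 1 of these. GCLC had too few counts to be tested across genes. Set against a floor of 3 counts over the shALDH1A1 group, it was at least 31.4-fold lower on the TMM scale and at least 3.83-fold lower on the scale of genes that every cell uses. Without CTRL replicate 3 the bound on the scale of genes that every cell uses was 2.55-fold, and without CTRL replicate 1 it was 5.18-fold. The TPM groups did not overlap (p = 0.0286, exact permutation test, two-sided).

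GCLM (chr1:94350755-94375012, minus strand), the modifier subunit that raises the affinity of GCLC for glutamate, was the most counted of the 10 genes in shALDH1A1 cells. It had 112, 37, 82 and 28 counts in shALDH1A1 cells, against 37, 17, 55 and 40 in CTRL cells. The TPM was 52.1, 23.1, 42.5 and 47.4 in shALDH1A1 and 3.76, 35.7, 3.83 and 5.02 in CTRL. The groups overlapped through CTRL replicate 2, whose 35.7 TPM lay above shALDH1A1 replicate 2, and the other 3 CTRL libraries were below every shALDH1A1 library. The mean was 41.3 ± 12.7 TPM in shALDH1A1 cells and 12.1 ± 15.8 TPM in CTRL cells (SD, n = 4 each). The log2 fold change was 2.06 (SE 1.07), which did not pass (adjusted p = 0.118), and on the scale of genes that every cell uses GCLM rose by 5.37 (adjusted p = 0.0137). Without CTRL replicate 2 it was 2.32 on the TMM scale and passed (adjusted p = 0.00728).

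Set against the genes that every cell uses within each library, GCLM stood higher in all 4 shALDH1A1 libraries. The log2 ratio of its TPM to theirs was -7.92 to -3.85 in shALDH1A1 libraries, against -13.4 to -9.26 in CTRL libraries, a difference of 5.47 (exact two-sided permutation test, p = 0.0286). The share of counts on those genes was itself lower in shALDH1A1 libraries, and the ratio carries that difference. GCLM took 41.4 to 84.2% of the counts of the 10 genes in shALDH1A1 libraries, against 1.03 to 17.2% in CTRL libraries.

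The shares of the transcript rows of GCLM are given without a test. Row NM_002061.4 held 19.3% of the GCLM counts in shALDH1A1 cells and 78.6% in CTRL cells. Row XM_011541261.2 held 46.4% in shALDH1A1 cells and 11.4% in CTRL cells, and CTRL replicate 2 put all of its 17 counts there. Row NM_001308253.1 held 33.3 counts in shALDH1A1 cells and 0 in CTRL cells. On NM_002061.4 alone, the levels were 6.76, 6.58, 5.81 and 26.8 TPM in shALDH1A1 cells and 3.08, 0, 3.66 and 4.61 TPM in CTRL cells. On that row the groups did not overlap, and shALDH1A1 replicate 4 was the highest. Counts are divided among transcripts by estimate, so the rows are less certain than the gene. When the row with the most counts stood for each gene, the fold change of GCLM was 0.21 (adjusted p = 0.871).

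**Figure D2:**
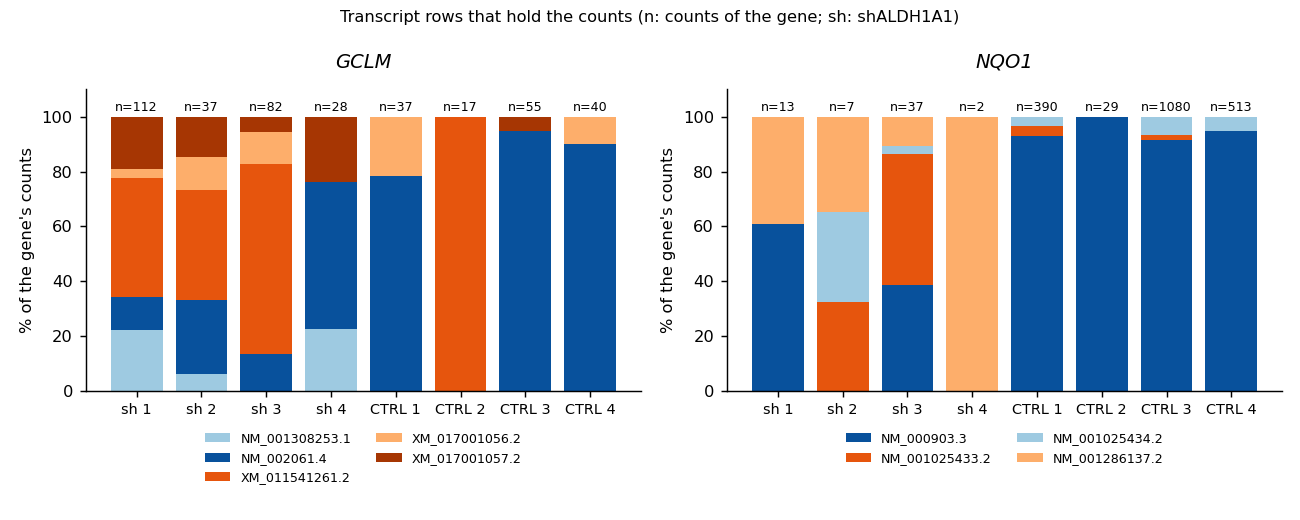
Percent of the counts of GCLM (left) and NQO1 (right) on each transcript row, by library, with shALDH1A1 (sh) left of CTRL and the gene's counts above each bar. NM_002061.4 held 19.3% of GCLM counts in shALDH1A1 cells and 78.6% in CTRL cells, and NM_000903.3 held 37.7% of NQO1 counts in shALDH1A1 cells and 92.7% in CTRL cells.

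The thioredoxin system transfers electrons from NADPH to oxidised proteins. TXN (chr9:113006090-113018787, minus strand), the thioredoxin itself, had 1, 11, 5 and 0 counts in shALDH1A1 cells, against 474, 15, 259 and 229 in CTRL cells. Its TPM was 4.19, 63.0, 23.4 and 0 in shALDH1A1 and 466, 274, 171 and 271 in CTRL. TXN had the highest mean TPM of the 10 genes in CTRL cells, though AKR1B10 was higher in CTRL replicate 3, and its highest shALDH1A1 value was below its lowest CTRL value. It fell by 3.35 on the log2 scale (SE 1.18, adjusted p = 0.0283). The call was lost without shALDH1A1 replicate 1, 3 or 4, with adjusted p-values of 0.0948, 0.0535 and 0.0942, and the value was -5.28 without shALDH1A1 replicate 2. On the scale of genes that every cell uses it was -0.95 (adjusted p = 0.47).

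TXNRD1 (chr12:104609557-104744085, plus strand), the reductase that recharges thioredoxin, had 1, 4, 4 and 2 counts in shALDH1A1 cells, against 138, 11, 300 and 192 in CTRL cells. Its TPM was 0.69, 3.72, 3.03 and 5.08 in shALDH1A1 and 20.2, 31.4, 29.5 and 34.6 in CTRL. The shALDH1A1 libraries were all lower and the CTRL libraries lay close together. TXNRD1 fell by 3.57 (SE 1.06, adjusted p = 0.0112), and the adjusted p without shALDH1A1 replicate 4 was 0.0548. Leaving out 1 library gave -4.47 (without CTRL replicate 2) to -2.98 (without shALDH1A1 replicate 1). On the other scale it was -0.79 (adjusted p = 0.556). All 11 counts in shALDH1A1 cells lay on the row NM_001261446.2, which held 4.61% of the CTRL counts. The log2 ratio of TXNRD1 to TXN was -4.08 and -2.95 in the 2 shALDH1A1 libraries where both genes had at least 3 counts, and -4.53 to -2.53 in the 4 CTRL libraries.

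Of 24 other glutathione and redoxin enzymes, 20 were tested and 12 fell, beside 33.0% of all tested genes, with a median of -3.18 on the TMM scale. The 4 with the smallest p-values were GSTK1 (-5.99), a mitochondrial and peroxisomal glutathione transferase, GGCT (-5.43), GPX3 (-6.31), a secreted glutathione peroxidase, and PRDX2 (-4.57), a cytosolic peroxiredoxin. Their adjusted p-values were 0.00127, 0.0014, 0.00151 and 0.00358. On the scale of genes that every cell uses, 2 of the 20 were lower (GSTK1 and GPX3) and 2 were higher, beside 5.52% and 40.5% of all tested genes. The median there was -0.83, and GGCT (-2.59, adjusted p = 0.0911) and PRDX2 (-1.65, adjusted p = 0.219) lost their calls. Without CTRL replicate 2, 19 of 22 tested were lower, beside 60.4% of all genes. Of the superoxide and peroxide enzymes, 6 were tested. SOD3 (-4.44), SOD1 (-3.26) and GPX1 (-3.04) fell (adjusted p = 0.00799, 0.0224 and 0.0437), beside 33.0% of all tested genes. GPX1 also counts among the redoxin enzymes above. SOD2 had a higher mean in shALDH1A1 cells, 1100 ± 1080 TPM against 157 ± 173 TPM in CTRL cells (SD, n = 4 each), and the groups overlapped. Its value was 2.77 on the TMM scale (adjusted p = 0.208 by edgeR) and 5.47 on the other (adjusted p = 0.0525). On the other scale edgeR called 0 of them, and 1 was higher at an unadjusted p under 0.05. DESeq2, with its own size factors, called 5 lower and 1 higher, beside 56.0% and 16.7% of all genes.

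**Figure D3:**
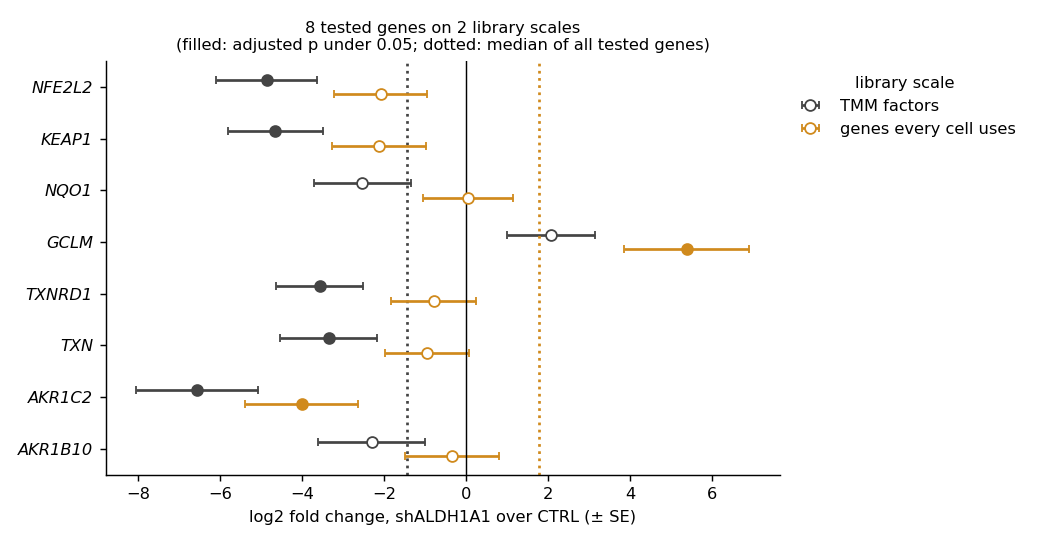
Log2 fold change of shALDH1A1 over CTRL for the 8 tested genes (± SE) on the TMM scale (grey) and on the scale of genes that every cell uses (orange), filled where the adjusted p was under 0.05, with dotted lines at the medians of all tested genes, -1.45 and 1.77. GCLM was the gene to the right of both medians, and NFE2L2, KEAP1, NQO1, TXNRD1, TXN, AKR1C2 and AKR1B10 lay to the left of their median on either scale.

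The values can also be read relative to the median of all tested genes, which moves with the scale. AKR1C2 was 5.11 below the median on the TMM scale and 5.78 below it on the scale of genes that every cell uses. NFE2L2 was at -3.41 and -3.85, KEAP1 at -3.2 and -3.89, and TXNRD1 at -2.12 and -2.56 relative to the median. TXN was at -1.9 and -2.72, NQO1 at -1.08 and -1.73, and AKR1B10 at -0.85 and -2.11. GCLM was at 3.51 and 3.6 above the median. So 7 of the 8 genes lay below the median of all genes and 1 lay above it on both scales, a description with no test. Subtracting each median takes out the shift between the scales, so the 2 values of a gene are not independent. Without that subtraction, 6 of the 8 genes did not pass on the scale of genes that every cell uses.

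NQO1 and HMOX1 act on quinones and heme. NQO1 (chr16:69740899-69760571, minus strand), which reduces quinones by a pair of electrons, had 13, 7, 37 and 2 counts in shALDH1A1 cells, against 390, 29, 1080 and 513 in CTRL cells. Its TPM was 13.2, 9.58, 40.9 and 7.77 in shALDH1A1 and 84.6, 122, 155 and 134 in CTRL. The groups did not overlap (p = 0.0286, exact permutation test, two-sided). The log2 fold change was -2.53 (SE 1.18) and did not pass across all genes (adjusted p = 0.0893). It passed without shALDH1A1 replicate 2 or 3 (adjusted p = 0.028 and 0.0319) and without CTRL replicate 2 or 4 (adjusted p = 0.00017 and 0.00833). On the scale of genes that every cell uses the direction turned, to 0.04 (adjusted p = 0.979), and within libraries the log2 ratio of NQO1 to those genes differed by 0.22 between the groups (exact permutation test, p = 0.857, n = 3 shALDH1A1 and 4 CTRL libraries). Row NM_000903.3 held 37.7% of the NQO1 counts in shALDH1A1 cells and 92.7% in CTRL cells, and NM_001286137.2 held 13.4 counts in shALDH1A1 cells and 0 in CTRL cells.

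HMOX1 (chr22:35776354-35790207, plus strand), the inducible heme oxygenase, was the lowest of the 10 genes in CTRL cells by mean TPM. It had 0, 4, 2 and 0 counts in shALDH1A1 cells, against 49, 1, 14 and 7 in CTRL cells. Its TPM was 0, 9.04, 3.69 and 0 in shALDH1A1 and 18.3, 7.21, 3.48 and 3.15 in CTRL. The groups overlapped (exact two-sided permutation test, p = 0.257). The pooled ratio, shALDH1A1 over CTRL, turned with the scale, at 0.369 with a 95% counting interval of 0.131 to 0.845 on the TMM scale and 3.03 with an interval of 1.08 to 6.93 on the scale of genes that every cell uses. Without CTRL replicate 1, which holds 49 of the 71 CTRL counts, the ratios were 0.783 (0.26 to 1.99) and 4.95 (1.64 to 12.6). Without CTRL replicate 3 they were 0.235 (0.0829 to 0.544) and 2.63 (0.927 to 6.09). Its relative HMOX2, the constitutive heme oxygenase, had no count in any shALDH1A1 library, against 158, 12, 238 and 107 in CTRL cells (adjusted p = 0.000719 by edgeR).

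The aldo-keto reductases reduce aldehydes and ketones, among them steroids, retinal and products of lipid oxidation. AKR1C2 (chr10:5029967-5060223, minus strand), a steroid-reducing member, had 2 counts in shALDH1A1 replicate 3 and 0 in the other 3 shALDH1A1 libraries, against 132, 4, 475 and 393 counts in CTRL cells. The TPM was 0, 0, 1.83 and 0 in shALDH1A1 and 20.0, 11.8, 49.6 and 71.5 in CTRL. Every shALDH1A1 library was below every CTRL library. AKR1C2 fell by 6.56 on the log2 scale (SE 1.48, adjusted p = 0.00152) and by 4.01 on the scale of genes that every cell uses (adjusted p = 0.0209), and it was the only one of the 8 tested genes called lower on both scales. The pooled ratio, shALDH1A1 over CTRL, was 0.00871 with a 95% counting interval of 0.00105 to 0.0315 on the TMM scale and 0.0714 with an interval of 0.00864 to 0.259 on the other, where it was 0.0416 (0.00503 to 0.151) without CTRL replicate 1. Without shALDH1A1 replicate 3, which holds both counts, the shALDH1A1 libraries are all at 0 and the fitted value of -10.51 depends on the prior count. AKR1C1, AKR1C2 and AKR1C3 are close paralogs that can share reads, so their separate values are uncertain.

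AKR1C3 fell by 3.37 (adjusted p = 0.0421), with a value of -0.7 on the scale of genes that every cell uses (adjusted p = 0.653), and AKR1C1 was at -2.84 (adjusted p = 0.0544). In CTRL libraries the log2 ratio of AKR1C2 to AKR1C1 and AKR1C3 together was -2.46 to -0.5. No shALDH1A1 library had the 3 counts of AKR1C2 that the ratio needed, while AKR1C3 had 0, 1, 13 and 5 counts and AKR1C1 had 3, 1, 14 and 1 in shALDH1A1 cells.

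AKR1B10 (chr7:134212319-134226164, plus strand), which reduces retinal and is high in several carcinomas, had 4, 6, 61 and 5 counts in shALDH1A1 cells, against 381, 4, 2175 and 625 in CTRL cells. Its TPM was 5.78, 12.6, 108 and 27.4 in shALDH1A1 and 136, 28.2, 516 and 268 in CTRL. The spread within each group was wide, shALDH1A1 replicate 3 lay above CTRL replicate 2, and the groups overlapped (exact two-sided permutation test, p = 0.0571). The log2 fold change was -2.30 (SE 1.3, adjusted p = 0.146) and -0.34 on the scale of genes that every cell uses (adjusted p = 0.836), and on the TMM scale without CTRL replicate 2 it was -3.83 (adjusted p = 0.000248). It also passed without shALDH1A1 replicate 2 or 3 and without CTRL replicate 4 (adjusted p = 0.0356, 0.0236 and 0.00842). AKR1B15 is a close paralog of AKR1B10 that can share its reads, so the separate counts are uncertain. In the same CTRL libraries, stomach epithelium markers ranged from 3.28% of the counts in replicate 2 to 38.7% in replicate 3, which had the highest AKR1B10.

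**Figure D4:**
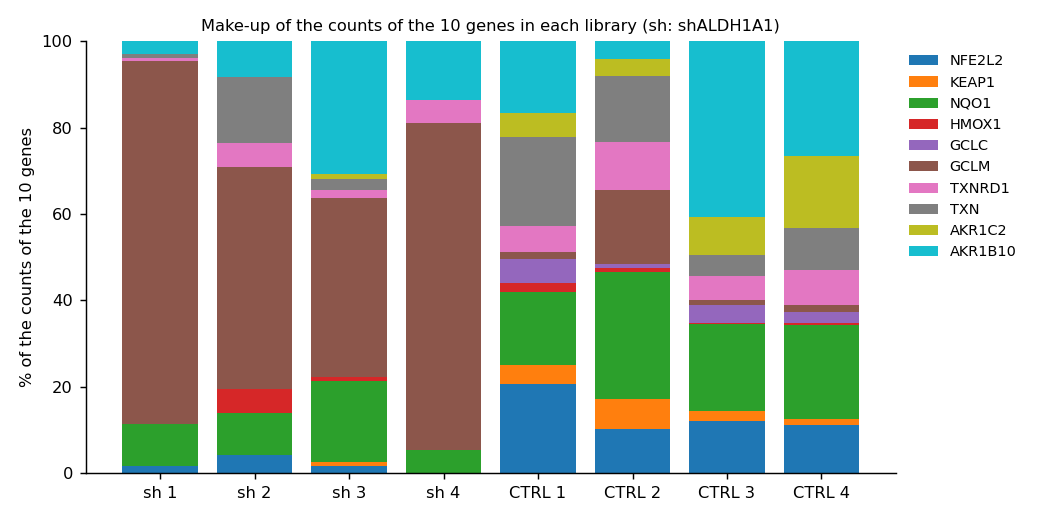
Make-up of the counts of the 10 genes in each library, as percent of their sum, with shALDH1A1 (sh) left of CTRL. GCLM took 41.4 to 84.2% in shALDH1A1 libraries, against 1.03 to 17.2% in CTRL libraries, and AKR1B10 took 3.0 to 30.8% in shALDH1A1 libraries, against 4.04 to 40.7% in CTRL libraries.

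The order of the levels differed between the groups. In shALDH1A1 cells the order by mean TPM was GCLM, AKR1B10, TXN, NQO1, HMOX1, TXNRD1, NFE2L2, KEAP1, AKR1C2 and GCLC. In CTRL cells it was TXN, AKR1B10, NQO1, NFE2L2, AKR1C2, TXNRD1, KEAP1, GCLC, GCLM and HMOX1. Every pair of neighbours in either order overlapped in its range over libraries.

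Other NRF2 targets were set beside these genes. Of 30 further target genes, 19 were tested, 6 fell and 0 rose on the TMM scale (0 higher at an unadjusted p under 0.05). Beside the 33.0% of all tested genes called lower, the share of the list was close to that of all genes. DESeq2 called 13 of the 19 lower and 1 higher, beside 56.0% and 16.7% of all genes. The median of the list on the TMM scale was -2.02. CBR1, a carbonyl reductase, had no count in any shALDH1A1 library, against 128, 2, 495 and 175 in CTRL cells (adjusted p = 0.000719). EPHX1, the microsomal epoxide hydrolase, fell by 5.38 (adjusted p = 0.00113). IDH1, a source of cytosolic NADPH, fell by 4.85 (adjusted p = 0.00395), and TALDO1, of the pentose phosphate pathway, fell by 3.26 (adjusted p = 0.0157). On the scale of genes that every cell uses, 1 of the 19 was lower (CBR1) and 6 were higher, beside 5.52% and 40.5% of all tested genes. Those higher were TRIM16L, UGDH, GSTM3, SLC7A11, FECH and ABCC4. The TPM of TRIM16L (mean 1650 against 321) and UGDH (54.3 against 19.2) was higher without overlap of the groups, as for 8.22% of all tested genes. Neither was called on the TMM scale (adjusted p = 0.116 and 0.226 by edgeR). The median of the list turned to 0.06. Without CTRL replicate 2, 20 of 26 tested were lower, beside 60.4% of all genes. Paralogs of the 10 genes numbered 15, of which 8 were tested and 5 fell (HMOX2, NFE2L1, AKR1B1, TXN2 and AKR1C3), beside 33.0% of all tested genes, with a median of -3.23. The lists share genes, and NFE2L1, TXN2 and AKR1C3 were already counted among the regulators, the redoxin enzymes and the targets. On the other scale 1 was lower (HMOX2) and 2 were higher, beside 5.52% and 40.5% of all tested genes, with a median of -0.63.

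**Figure D5:**
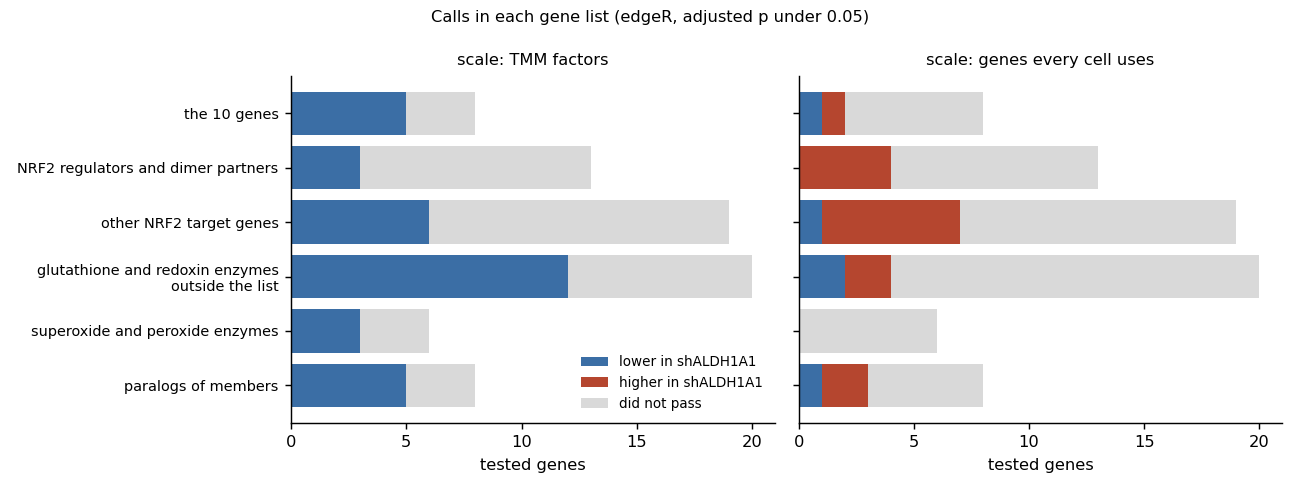
Tested genes of each list called lower (blue) or higher (red) in shALDH1A1 or not passed (grey), on the TMM scale (left) and the scale of genes that every cell uses (right). On the left the regulators had 3 of 13 lower, the other targets 6 of 19 and the redoxin list 12 of 20, beside 33.0% of all tested genes, and on the right these were 0, 1 and 2, beside 5.52%.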

How the data were processed

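RNA of 8 libraries labelled as HT29 was sequenced. According to the study's methods the authors aligned reads to hg19 with HISAT and quantified them with RSEM, while the submitters' processing notes name Bowtie2, BWA and GRCh38.p13. The deposited table holds the authors' expected counts, not normalized, and the authors' TPM per transcript, with 64.7% of the non-zero counts not whole at a tolerance of 0.001. Counts were summed per gene symbol and rounded, and TPM was summed. Genes were filtered with filterByExpr (minimum count 10, minimum total 15) and tested with edgeR 4.0.16 (TMM factors and its two-sided quasi-likelihood F test, with adjustment by Benjamini-Hochberg) in R 4.3.3, without a replicate block. Standard errors were derived from the fold change and its F statistic. Single values were compared with exact two-sided permutation tests on log2(TPM + 1). Alternatives were DESeq2 1.42.0, limma 3.58.1 on log2 TPM with pseudocounts of 1 and 0.1, other scalings and filters, a replicate block, the most counted transcript, the thresholds of the study's methods and leaving out each library. Gene coordinates are those of GRCh37 (GENCODE v44lift37). Named genes were ALDH1A1, the 10 genes, paralogs and the genes with the smallest p in each list, at most 4. The genes and lists were chosen with earlier results of these data known. CAND1, SKP1, AKR1C1, SOD2, the targets named as higher and the library values of AKR1C3 were added after their values were seen. The values of single cell type markers were also added in this way. Leaving out stomach and MTRNR2L counts, the 30-gene scale without CTRL replicate 2, the summed share per count of the 30 genes and list counts in other settings were chosen after seeing the data. Depth was 291260 to 4137111 counts.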

Additional observations from a re-analysis of the deposited data

Results flagged for a closer look

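On log2(CPM + 1) with TMM scaling, 21 groups of 4 libraries were searched for a library that lay apart, and 3 had one. The rule flags about 5% by chance for continuous values, a rate that does not hold for groups with tied zeros. KEAP1 stood at 2.3 in shALDH1A1 replicate 3 and at 0 in the other shALDH1A1 libraries. AKR1C2 stood at 2.3 in shALDH1A1 replicate 3 and at 0 in the other shALDH1A1 libraries. Each value rests on 2 counts, and any count beside zeros in all the other libraries of a group would be flagged. GCLC stood at 2.01 in CTRL replicate 2, against 4.72 to 4.96 in the other CTRL libraries, and rests on 1 count.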

How the results depend on the processing

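AKR1C2 passed with a negative value in all 20 settings in which it was tested, from -10.51 to -4.01. As the CTRL libraries alone carried AKR1C2, NFE2L2, KEAP1 and TXNRD1 past the main filter, the settings are not independent support for their direction. TXN, NQO1 and AKR1B10 also needed CTRL libraries to pass it, so the same limit holds for them. GCLM was positive in all 21 settings, from 0.21 to 6.67, and passed in 6 of them. NFE2L2 was negative in all 21 and passed in 19, KEAP1 in 17 of 19, TXNRD1 in 17 of 20 and TXN in 16 of 21. NQO1 passed in 13 of 21 and AKR1B10 in 8 of 21. NQO1 turned to 0.04 on the scale of genes that every cell uses. Its within-library ratio turned to -0.51 without shALDH1A1 replicate 1 and to -0.24 without CTRL replicate 1, and that of AKR1B10 to -0.33 without shALDH1A1 replicate 3, and to -0.16 and -0.62 when CTRL replicate 1 or 2 was left out. The summed share of the 10 genes turned to a difference of 0.0508 counts per count of the genes that every cell uses (exact permutation p = 0.286), a setting chosen after seeing the data. Leaving out 1 library gave ratio differences of -0.51 to 1.17 for NQO1 and -0.62 to 0.95 for AKR1B10. The cause of these turns was not tested.

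Of the 10 genes, 5 were called in the main test, 8 with DESeq2, 8 with no filter, 2 on the scale of genes that every cell uses, 3 on that scale without CTRL replicate 2 and 0 at the study's thresholds, where 6 had an unadjusted p under 0.05 in the same test. Leaving out 1 library gave 4 to 9, with 4 without shALDH1A1 replicate 4 and 9 without CTRL replicate 2. Over all genes 2840 were called, 5775 with DESeq2, 5095 with median-of-ratios factors, 8061 with no filter, 1233 with a stricter filter, 4419 with limma on log2(TPM + 1), 1318 with the most counted transcript and 396 at the study's thresholds. Leaving out 1 library gave 2079 to 7711 (7711 without CTRL replicate 2, 5961 without shALDH1A1 replicate 2). Of the calls, 7.29% were higher in shALDH1A1 in the main test, 23.0% with DESeq2, 17.7% with median-of-ratios factors, 28.4% with limma, 1.44% with library totals only and 88.0% on the scale of genes that every cell uses. GCLC was tested in 7 settings, with negative values and adjusted p-values from 2.15e-05 to 0.0168. With no shALDH1A1 count, it entered these fits only through CTRL counts, and its sign was fixed in advance. The fitted values depend on the prior count, so these p-values are not support for a fall. With the replicate block 6 of the 10 genes and 3541 of all genes were called, with NQO1 added (adjusted p = 0.0426). Libraries of the same number correlated at -0.347 to 0.150 in their deviations, and libraries of different number at -0.321 to 0.385. The labels give only a shared number, and such correlations cannot tell whether a culture or a batch was shared. The depth limits GCLC, KEAP1, AKR1C2 and HMOX1, which had 0 to 6 counts over the shALDH1A1 group.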
